A study of Mus musculus with 28 samples.

Results

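Cyclins and the genes that carry a cell into and through mitosis were followed in mouse liver after an alkylating agent. The set held 10 listed genes, namely Ccna2, Ccnb1, Ccnb2, Ccnd1, Ccne1, Pttg1, Top2a, Mki67, Cdc20 and Plk1. All probe sets that the array annotation assigns to these symbols were taken, however dim, which gave 14 of the 12422 probe sets tested and covered 9 of the 10 genes. Ccnb1 had no probe set under its symbol or gene identifier and was not analysed here. Plk1 had 3 probe sets, and Ccnd1, Pttg1 and Mki67 had 2 each.

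The study used 28 liver samples, each on its own array, from wild-type (WT) mice and from mice null for Aag, the alkyladenine DNA glycosylase encoded by Mpg, which removes alkylated bases from DNA. Each genotype was taken untreated and 6, 12, 24 and 48 h after methyl methanesulfonate (MMS), a methylating agent. The WT groups held 3 untreated arrays and 2, 3, 2 and 2 arrays at the successive times, and the Aag null groups held 4 untreated and 3, 2, 4 and 3. The labels name no strain, age, sex, dose or vehicle and do not say whether samples of a group came from separate animals, so p-values measure only the spread between these samples. No untreated sample is labelled with a time, so the effect of MMS and that of the time since dosing cannot be told apart. RNA came from whole liver, in which fewer cells of a type and less RNA per cell cannot be told apart.

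Progress through the cell cycle is driven by cyclins, which bind and switch on cyclin-dependent kinases and are then destroyed. Cyclin D1 and cyclin E1 act before DNA synthesis, cyclin A2 acts in DNA synthesis and beyond it, and the B cyclins act at entry to mitosis. Polo-like kinase 1 and topoisomerase II alpha work on the mitotic spindle and chromosomes, and Cdc20 directs the anaphase promoting complex against securin, the product of Pttg1, to let sister chromatids part. Adult hepatocytes are mostly quiescent, and many of the mitotic genes are turned on together late in the cycle through promoters that often hold CCAAT boxes and TTTGAA elements.

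Promoter windows, from 250 bases before to 50 bases after the start site, were found for 8 of the 10 genes in RefSeq (build GRCm38.p6), all but Ccna2 and Ccnd1. Shown are Plk1 and Mki67, which had called probe sets in treated WT liver, Ccnb2, the B cyclin on the array, and Pttg1, which had a called probe set between genotypes. Capitals mark CCAAT, or ATTGG where it lies on the other strand, and TTTGAA, or its reverse TTCAAA.
Plk1, chr7:122159185-122159484, + strand: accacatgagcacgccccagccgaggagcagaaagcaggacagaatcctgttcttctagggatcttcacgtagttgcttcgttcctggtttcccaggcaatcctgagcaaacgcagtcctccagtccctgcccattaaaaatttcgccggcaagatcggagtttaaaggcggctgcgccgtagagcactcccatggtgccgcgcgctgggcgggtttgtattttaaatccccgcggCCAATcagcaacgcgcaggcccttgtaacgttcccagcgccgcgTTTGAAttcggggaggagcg
Mki67, chr7:135716330-135716629, - strand: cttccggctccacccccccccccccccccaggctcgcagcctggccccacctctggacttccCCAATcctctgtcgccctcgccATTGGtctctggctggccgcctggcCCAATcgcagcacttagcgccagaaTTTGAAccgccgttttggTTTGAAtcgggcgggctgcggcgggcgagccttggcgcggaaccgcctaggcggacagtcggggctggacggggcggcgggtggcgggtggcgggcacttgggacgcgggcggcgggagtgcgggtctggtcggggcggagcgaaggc
Ccnb2, chr9:70421505-70421804, - strand: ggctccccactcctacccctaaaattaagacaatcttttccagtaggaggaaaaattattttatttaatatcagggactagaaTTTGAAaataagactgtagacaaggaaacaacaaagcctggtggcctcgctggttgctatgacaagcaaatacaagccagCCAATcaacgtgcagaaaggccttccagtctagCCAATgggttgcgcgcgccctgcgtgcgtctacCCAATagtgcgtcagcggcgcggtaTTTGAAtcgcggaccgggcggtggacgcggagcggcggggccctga
Pttg1, chr11:43425932-43426231, - strand: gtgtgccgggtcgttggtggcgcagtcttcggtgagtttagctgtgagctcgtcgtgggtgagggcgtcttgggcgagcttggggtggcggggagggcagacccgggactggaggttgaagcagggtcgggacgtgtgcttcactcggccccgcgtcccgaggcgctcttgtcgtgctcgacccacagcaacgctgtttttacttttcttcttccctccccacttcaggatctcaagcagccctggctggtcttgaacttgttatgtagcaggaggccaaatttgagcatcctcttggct

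CCAAT was found on either strand in 6 of the 8 windows and in 37.4% of all 32851 RefSeq promoter windows. TTTGAA was found in 5 of the 8 and in 17.9% of all windows. Both stood in Ccnb2, Top2a, Mki67, Cdc20 and Plk1, 5 of the 8, against 6.95% of all windows. The E2F-type letters TTTCGCGC or TTTGGCGC were in 0 of the 8 and in 0.813% of all windows. No matches in the 8 windows overlapped one another. In Plk1 the CCAAT match ran from position -14 to -10 and TTTGAA from 31 to 36, and Mki67 and Ccnb2 held 3 CCAAT and 2 TTTGAA matches each. Pttg1 and Ccne1 held neither, which says only that these letters are not in that window. The Pttg1 window is set on a start site 1482 bases inside the gene's annotated span, where those of the other 7 genes lie 0 to 71 bases inside, so it may not be the gene's main promoter.

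Values were log2 signals, and all arrays lay between 0.69 and 13.16. The hepatocyte markers were bright, with 7 of their 8 probe sets above the array median on all 28 arrays and Alb at a mean of 12.33. Mpg, the targeted gene, was dim and lower in untreated Aag null than in untreated WT liver by a log2 difference of -0.38 (SE 0.11, limma adjusted p = 0.02603). The labels do not say whether its probe set lies in the deleted stretch. Hybridization controls, RNAs added at fixed amounts, split the arrays into a high and a lower set. Their mean was at least 10.25 on 5 arrays (all 3 WT untreated arrays and replicates 3 and 4 of Aag null untreated) and at most 9.22 on the other 23. In WT liver every untreated array was in the high set and every treated array in the lower set, so treatment and array set cannot be told apart there. A fit with a term for the array set takes its effect from the untreated Aag null arrays, which fell in both. The 3' minus 5' signal of Gapdh, a sign of RNA quality or labelling, was 0.63 to 0.92 on the 5 arrays of the high set and -0.37 to 0.21 on the others. Replicate 3 of untreated Aag null liver and replicates 1 and 2 at 24 h carried a female-typical level of Cyp2b9.

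Signals of the cyclin and mitosis genes were low to moderate. Both Mki67 probe sets, Top2a and the Pttg1 probe set 101026_at stayed below the array median on all 28 arrays, whereas Ccna2, Ccnb2, both Ccnd1, Ccne1, the other Pttg1 and 2 of the 3 Plk1 probe sets stayed above it on all 28. Cdc20 was above it on 23 arrays and Plk1 93099_f_at on 7. A value below the median was kept, and no level was read as absence.

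After MMS most of these genes did not pass the test. In WT liver 1 of 14 probe sets was called at 6 h (limma adjusted p under 0.05 over all 12422 probe sets), where 16.8% of all probe sets were called. At 12 h 2 of 14 were called against 21.7% of all, at 24 h 2 of 14 against 15.1%, and at 48 h 0 of 14 against 17.6%, where 2 had an unadjusted p under 0.05. All 5 calls were higher after MMS and came from Plk1 and Mki67. The members' share was near or below the background at each time, so these counts do not set the group apart. In Aag null liver 0 of 14 were called at 6, 12, 24 and 48 h, against 0.314%, 0.129%, 0.499% and 0.233% of all probe sets, with 1, 0, 3 and 5 of 14 at an unadjusted p under 0.05. The median difference over the 14 lay between 0.02 and 0.11 in WT and between -0.03 and 0.17 in Aag null, on the log2 scale, and the median over all probe sets between 0.00 and 0.03.

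**Figure D1:**
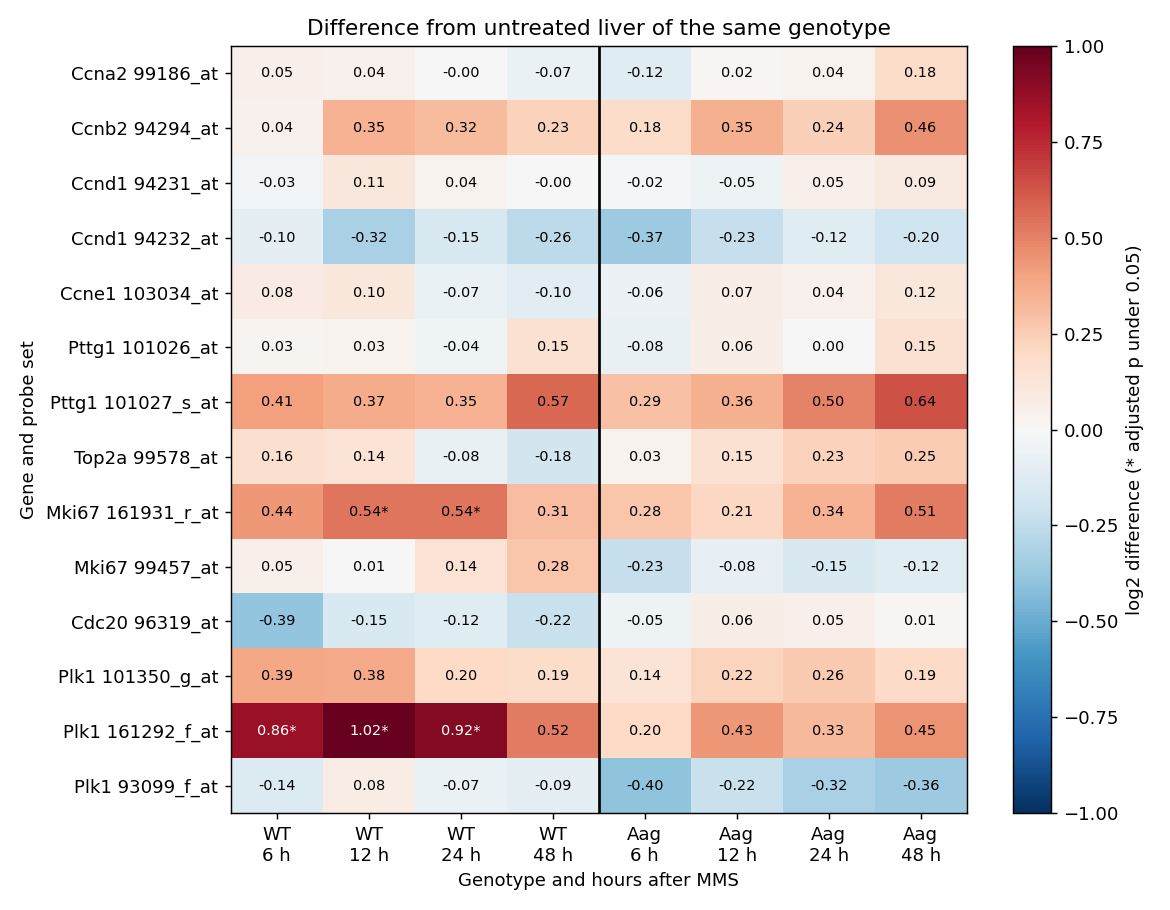
Log2 difference from untreated liver of the same genotype for each of the 14 probe sets (rows) at each time after MMS (columns), with red for higher and blue for lower and an asterisk where the limma adjusted p was under 0.05. The 5 asterisks are Plk1 161292_f_at at 6, 12 and 24 h and Mki67 161931_r_at at 12 and 24 h, all in WT liver.

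The cyclins of the first gap phase stayed close to their untreated values. Ccnd1, the growth-factor-induced partner of Cdk4 and Cdk6, ranged over all 28 arrays from 4.39 to 4.97 by probe set 94231_at and from 4.24 to 5.59 by 94232_at. By the former its differences after MMS were -0.03 to 0.11 in WT and -0.05 to 0.09 in Aag null liver, and by the latter -0.32 to -0.10 and -0.37 to -0.12. None was called, and the 2 probe sets differed in sign at 12 and 24 h in WT and at 24 and 48 h in Aag null liver. The highest values of 94232_at were 5.59 and 5.10, on the 2 untreated Aag null arrays of the high set, against 4.24 and 4.66 on the 2 of the lower set. Ccne1, which drives entry into DNA synthesis with Cdk2, ranged from 5.64 to 6.62 and differed from untreated by -0.10 to 0.10 in WT and -0.06 to 0.12 in Aag null liver.

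Cyclin A2 and cyclin B2 likewise passed the test at no time. Ccna2 ranged from 5.52 to 6.30, with differences of -0.07 to 0.05 in WT and -0.12 to 0.18 in Aag null liver. Ccnb2, which activates Cdk1 at the start of mitosis, read 4.71, 5.07 and 5.12 in untreated WT liver and 5.39, 5.23 and 5.34 at 12 h. The 12 h arrays lay above all untreated ones (difference 0.35, adjusted p = 0.1649). In untreated Aag null liver Ccnb2 read 5.45 and 5.08 on the 2 arrays of the lower set and 4.49 and 4.74 on the 2 of the high set, and at 48 h it read 5.34, 5.49 and 5.36. The 48 h difference was 0.46 (adjusted p = 0.2072), and the 48 h values overlapped the untreated ones because of the untreated array at 5.45.

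Plk1, the kinase that matures centrosomes and triggers mitotic entry, gave the largest differences of the set, but in 1 of its 3 probe sets. Probe set 161292_f_at read 5.38, 5.45 and 5.26 in untreated WT liver. After MMS it read 5.70 and 6.75 (6 h), 6.40, 6.33 and 6.42 (12 h), 6.37 and 6.19 (24 h) and 5.92 and 5.85 (48 h). All 9 treated WT arrays lay above the 3 untreated ones, where treatment and array set cannot be told apart. The share of all probe sets with arrays apart in this way was not counted, here or for the other members. The log2 difference was 0.86 (SE 0.22, limma adjusted p = 0.01077) at 6 h, 1.02 (SE 0.20, adjusted p = 0.000887), or 2.03-fold, at 12 h and 0.92 (SE 0.22, adjusted p = 0.007249) at 24 h. At 48 h it was 0.52 (adjusted p = 0.1101), short of the threshold. The 6 h call was lost without WT 6 h replicate 2 (0.34, adjusted p = 0.2737), and the 24 h call without WT 24 h replicate 1 (0.83, adjusted p = 0.09058). With a term for the array set in the fit the differences were 0.53, 0.69 and 0.59 at 6, 12 and 24 h, and none was called (adjusted p = 0.4566, 0.2675 and 0.3641).

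In Aag null liver the same Plk1 probe set read 6.02 and 5.55 on the untreated arrays of the lower set and 5.43 and 5.48 on those of the high set. After MMS it read 5.45, 6.08 and 5.94 (6 h), 5.92 and 6.18 (12 h), 5.93, 5.86, 6.20 and 5.79 (24 h) and 6.11, 6.07 and 6.01 (48 h). The treated values overlapped the untreated ones at every time, and the differences of 0.20, 0.43, 0.33 and 0.45 were not called. The response differed between genotypes by -0.66, -0.59, -0.59 and -0.07 at 6, 12, 24 and 48 h (Aag null minus WT), which did not pass the test of the difference itself (adjusted p from 0.3593 to 0.9281). The other Plk1 probe sets were not called in either genotype. In WT, 101350_g_at differed by 0.19 to 0.39 and 93099_f_at by -0.14 to 0.08. The Aag null differences of 93099_f_at were -0.40 to -0.22, with the 24 and 48 h arrays below all untreated ones.

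Mki67 encodes the Ki-67 protein, which coats mitotic chromosomes and marks cycling cells. Its probe set 161931_r_at read 2.80, 2.76 and 3.15 in untreated WT liver. After MMS it read 3.08 and 3.60 (6 h), 3.48, 3.21 and 3.62 (12 h), 3.41 and 3.48 (24 h) and 2.93 and 3.49 (48 h). The arrays at 12 and 24 h lay above the untreated ones, whereas those at 6 and 48 h overlapped them. The difference was 0.54 at 12 h (SE 0.16, limma adjusted p = 0.02003) and 0.54 at 24 h (SE 0.18, adjusted p = 0.04458), 1.45-fold each, on a probe set below the array median throughout. With a term for the array set both were 0.23 and not called (adjusted p = 0.7286 and 0.7027), and with median centring they were 0.42 and not called (adjusted p = 0.0636 and 0.1082). Leaving out WT untreated replicate 1 or 2, WT 12 h replicate 1 or 3, or either WT 24 h array also ended the call it bore on, with adjusted p from 0.06368 to 0.2429. The Aag null differences were 0.28, 0.21, 0.34 and 0.51, with none called. The 48 h arrays, at 3.56, 3.53 and 3.76, lay above the untreated ones at 3.37, 3.16, 2.76 and 3.15 (adjusted p = 0.1309). The second Mki67 probe set, 99457_at, ranged from 1.37 to 2.11 and was not called.

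Top2a, which untangles sister chromatids, ranged from 2.94 to 3.63 and was called in no comparison. Its differences from untreated were -0.18 to 0.16 in WT and 0.03 to 0.25 in Aag null liver. Cdc20 ranged from 3.85 to 4.57. It read 4.55, 4.22 and 4.52 in untreated WT liver and 3.85 and 4.22 at 6 h (difference -0.39, adjusted p = 0.08863), and its later differences in WT were -0.22 to -0.12.

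Pttg1 was the gene with the clearest difference between genotypes. Probe set 101027_s_at read 5.93, 6.25 and 5.97 in untreated WT liver and 5.85 and 5.56 (lower set) and 5.28 and 5.14 (high set) in untreated Aag null liver. All 4 Aag null arrays lay below the 3 WT arrays, with a log2 difference of -0.59 (SE 0.18, limma adjusted p = 0.04132), a ratio of 0.664. It was the 1 of 14 members called there, against 9.36% of all probe sets. With only arrays of the high set standing for untreated liver the difference was -0.84 (limma adjusted p = 0.01902). The treated arrays, all of the lower set, stayed in that fit and entered its estimate of spread. This difference rests on 2 Aag null arrays, of which replicate 3 was female-typical. A term for the array set gave the same -0.84 (adjusted p = 0.01676). It is no second check, because that term takes its effect from the untreated Aag null arrays and all untreated WT arrays were in the high set. The call lay near the threshold. It was lost on the values as deposited (-0.55, adjusted p = 0.0548), with array weights (-0.59, adjusted p = 0.466), in a fit of only the 2 untreated groups (-0.59, adjusted p = 0.1876), without the female-typical arrays (-0.53, adjusted p = 0.09573), and without any 1 of 6 of the 7 untreated arrays, the exception being Aag null replicate 1.

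After MMS Pttg1 in WT liver read 6.55 and 6.38 (6 h), 6.48, 6.39 and 6.39 (12 h), 6.45 and 6.35 (24 h) and 6.68 and 6.57 (48 h). The Aag null values were 5.45, 5.97 and 5.85 (6 h), 5.82 and 5.81 (12 h), 5.79, 5.74, 6.24 and 6.07 (24 h) and 5.77, 5.92 and 6.60 (48 h). The Aag null arrays lay below the WT arrays at 6, 12 and 24 h, and at 48 h Aag null replicate 3 reached the WT range. The differences of -0.71, -0.61, -0.44 and -0.53 were not called (adjusted p = 0.7757, 1, 0.9997 and 0.9986), in comparisons where 0.0483%, 0.00805%, 0% and 0% of all probe sets were called. Of the members, 1, 1, 1 and 2 had an unadjusted p under 0.05 at these times. Over the mean of the 4 times, a comparison added after these values were seen and so no independent support, Pttg1 was lower by -0.57 (SE 0.11, 95% interval -0.79 to -0.35, adjusted p = 0.02731). It was the 1 member called there, where 0.0725% of all probe sets were called. Without the female-typical arrays that mean difference was -0.52 (adjusted p = 0.155), and leaving out single arrays moved it between -0.63 and -0.53 and ended the call for 15 of the 21 treated arrays.

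Pttg1 101027_s_at differed from untreated liver of the same genotype by 0.35 to 0.57 in WT and 0.29 to 0.64 in Aag null liver, with no call. All 9 treated WT arrays lay above the 3 untreated ones, but treatment and array set cannot be told apart there. In untreated Aag null liver the lower set read 0.49 above the high set by this probe set. How many of all probe sets had WT arrays apart in this way was not counted. The genotype difference in the response after MMS was -0.12, -0.02, 0.15 and 0.06 at the 4 times (adjusted p from 0.8793 to 0.995). The second probe set, 101026_at, ranged from 1.61 to 2.20 and its genotype difference was -0.10 in untreated liver (adjusted p = 0.6794) and -0.11 over the treated times.

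**Figure D2:**
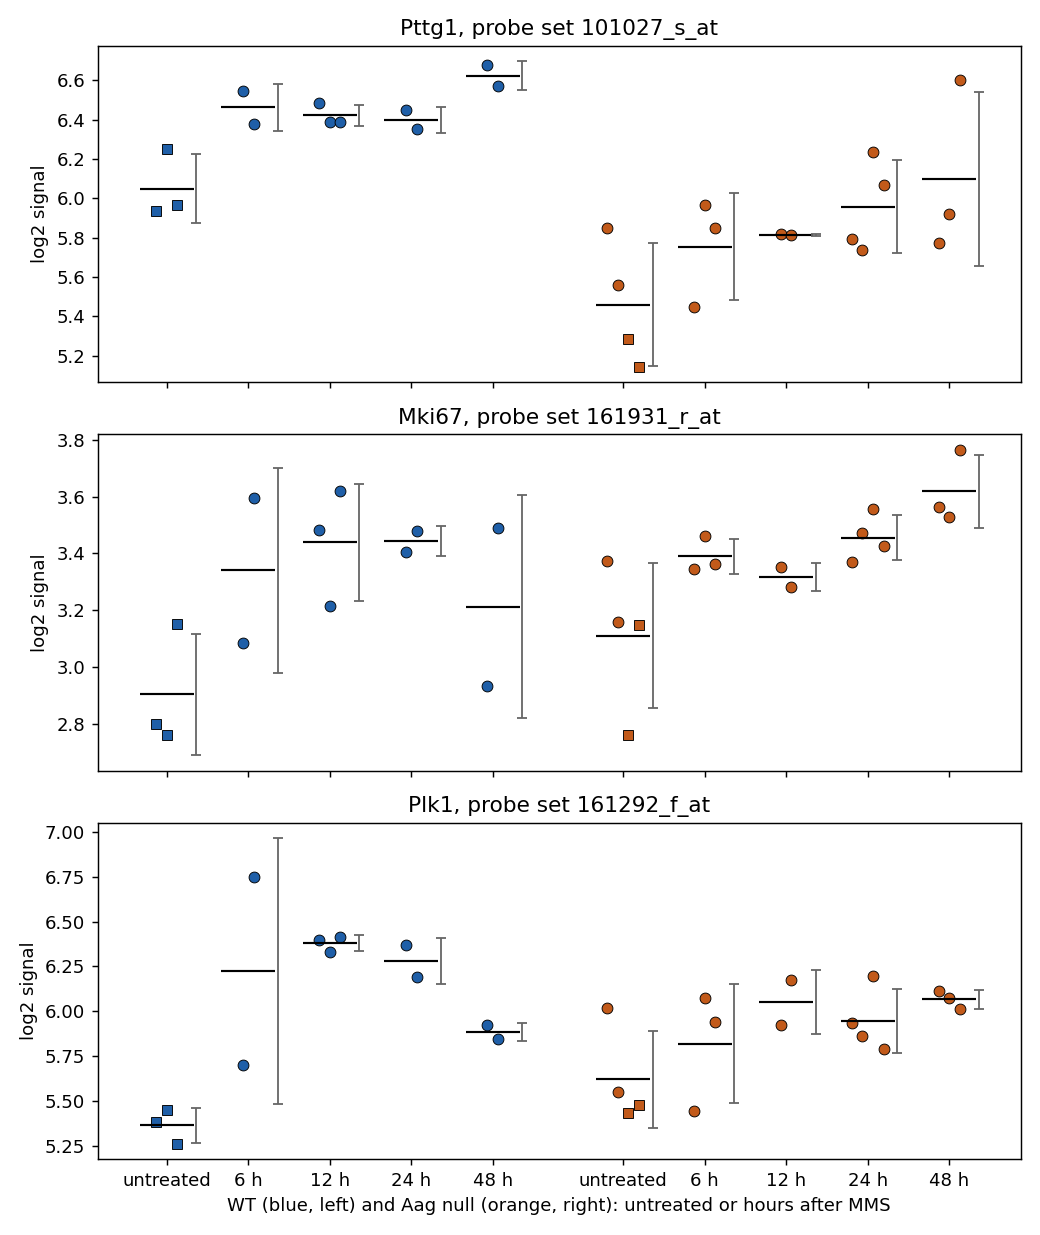
Log2 signal of each array for the 3 probe sets that were called in at least 1 comparison, by genotype and time, with squares for arrays of the high hybridization control set, circles for the lower set, a bar at the group mean and a whisker of 1 SD. The WT means of Plk1 are highest at 12 and 24 h, and the Aag null arrays of Pttg1 lie below the WT arrays in every group but 48 h.

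The 3 probe sets that were called in a planned comparison carry the suffixes _f_at, _r_at and _s_at, which the array maker gave to designs whose probes can be shared with related sequences or were chosen under relaxed rules. Which probe of a set read which transcript was not tested. For each of Plk1, Mki67 and Pttg1 the other probe sets were not called in the same comparison. Across the 21 treated arrays the 6 pairs of probe sets of the same gene had Pearson r from -0.38 to 0.79, with a median of 0.63, and the 2 Mki67 probe sets were the pair at -0.38. The 36 pairs of different genes, by the brightest probe set of each, had r from -0.06 to 0.76 with a median of 0.47. These are descriptions over arrays that share group means and array quality.

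**Figure D3:**
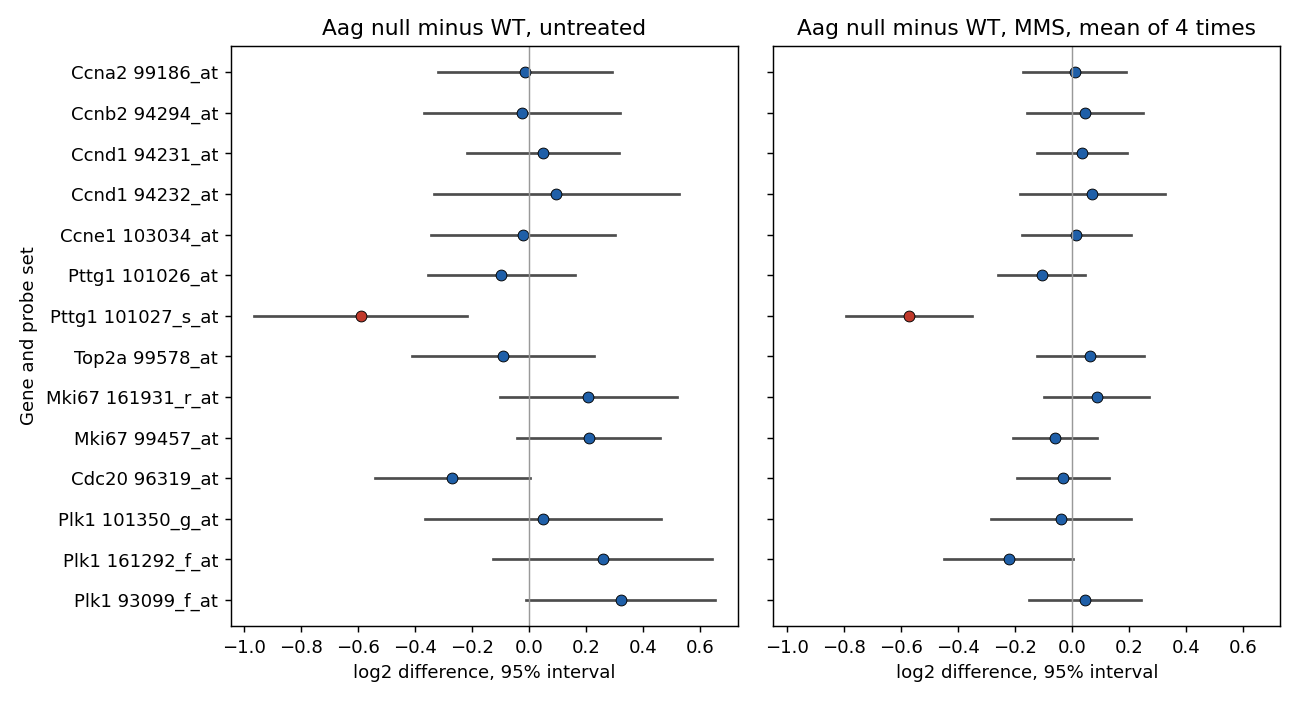
Log2 difference of Aag null from WT liver with its 95% interval for each of the 14 probe sets, untreated (left) and over the mean of the 4 treated times (right), with red for the called probe set. Pttg1 101027_s_at lies at -0.59 and -0.57, and the other 13 probe sets lie between -0.27 and 0.32.

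Of the other members, none was called between genotypes. In untreated liver the 13 other probe sets differed by -0.27 (Cdc20, whose Aag null arrays at 4.11 to 4.20 lay below the WT arrays at 4.22 to 4.55, adjusted p = 0.2144) to 0.32 (Plk1 93099_f_at). At 48 h Ccna2, Ccnb2, Ccne1, Top2a, Mki67 161931_r_at and Plk1 161292_f_at were above all WT arrays in Aag null liver, by 0.18 to 0.41. None of these 6 was called (adjusted p = 0.9986 for each), and only 2 arrays stood for WT at that time. For Ccnb2 the lowest Aag null array read 5.344 and the highest WT array 5.342. In that comparison 10 of 14 differences were above 0, against 51.86% of all probe sets. How many of all probe sets had ranges apart in this way was not counted, so these 6 do not set the group apart. No member's response differed between genotypes at 6, 12, 24 or 48 h by the test of the difference, where 0.700%, 0.572%, 0.564% and 1.80% of all probe sets were called and 1, 0, 1 and 1 of the 14 had an unadjusted p under 0.05.

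Differences among treated arrays do not use the untreated group means, though the untreated arrays enter the normalization and the shared estimate of spread. In WT liver 0 of 14 were called between 24 and 6 h, against 0.177% of all, or between 48 and 6 h, against 0.290%, with 7 of 14 differences above 0 in each and 0 with an unadjusted p under 0.05. These counts turned on the 2 WT arrays at 6 h: without replicate 1, 6 and 4 of 14 were above 0 at 24 and 48 h (medians -0.14 and -0.20), and without replicate 2, 10 and 10 (medians 0.24 and 0.17). Without replicate 1, 1 of 14 was called at 48 h against 6 h. Among the Aag null arrays all 14 differences were above 0 at 24 h against 6 h (median 0.10) and at 48 h against 6 h (median 0.20), while 56.89% and 54.88% of all probe sets were above 0. None was called, against 0.0242% and 0.0403% of all probe sets, and 0 had an unadjusted p under 0.05. The largest were Pttg1 101027_s_at at 0.34 and Ccna2 at 0.30, both at 48 h. Aag null 6 h replicate 1 was below its group mean for 12 of 14 probe sets and had a hybridization control mean of 6.59, the second lowest of all arrays. Without it 8 of 14 differences at 24 h and 10 of 14 at 48 h were above 0, with medians of 0.03 and 0.11.

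The untreated Aag null arrays fell in both array sets. On the 2 arrays of the lower set 11 of 14 probe sets had higher means than on the 2 of the high set, against 52.69% of all probe sets. The difference was 0.67 for Plk1 101350_g_at, 0.65 for Ccnb2, 0.49 for Pttg1 101027_s_at, 0.33 for Plk1 161292_f_at and 0.31 for Mki67 161931_r_at, and it was -0.89 for Ccnd1 94232_at. When only the 2 lower-set arrays stood for untreated liver, 0 of 14 probe sets were called at any time after MMS in Aag null liver.

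**Figure D4:**
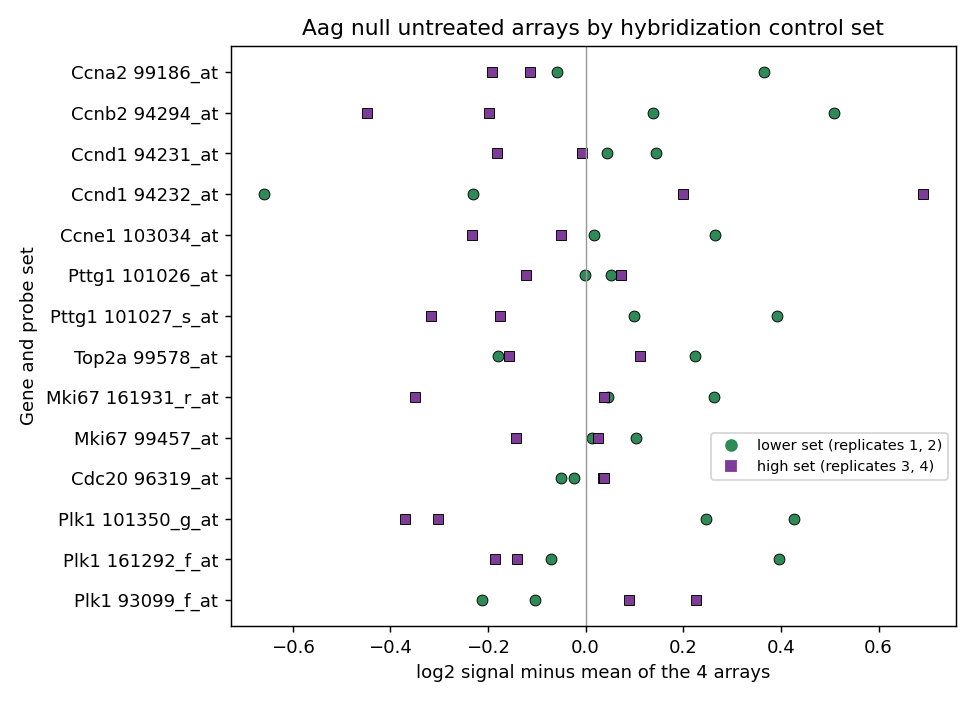
Log2 signal of each untreated Aag null array minus the mean of the 4 arrays, for each of the 14 probe sets, with green circles for the 2 arrays of the lower hybridization control set and purple squares for the 2 of the high set. The circles lie to the right of the squares for Plk1 101350_g_at and Ccnb2 and to the left for Ccnd1 94232_at.

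Other genes of the cell cycle were read from 7 lists that held 154 probe sets. In WT liver 20, 24, 19 and 21 of the 154 were called at 6, 12, 24 and 48 h, near the background shares given above. The Aag null counts were 1, 1, 2 and 0. Between treated genotypes 0 of the 154 were called at 6, 12, 24 and 48 h, against 0.0483%, 0.00805%, 0% and 0% of all. Between untreated genotypes 11 were called, against 9.36% of all probe sets. A difference in response between genotypes, given below for some genes, includes the difference between the untreated groups. With a term for the array set 3, 3, 7 and 9 of the 154 were called in WT liver, of which 2, 2, 3 and 5 were calls without it. The share of all probe sets called with that term is not given here. Between untreated genotypes the term is no second check, as for Pttg1. It then rests on the untreated Aag null arrays of the high set.

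Among 13 probe sets of 11 other cyclins, 1 was higher and 2 or 3 were lower in WT liver at each time. Ccng2, an unconventional cyclin linked to cell cycle arrest, was lower by -1.19, -1.06, -0.84 and -1.25 at 6, 12, 24 and 48 h (adjusted p from 0.0002937 to 0.007845), and each call held with a term for the array set (-1.53 to -1.12). Ccng2 was also lower in untreated Aag null than untreated WT liver (-0.79, adjusted p = 0.006138), a comparison that shares the WT untreated arrays. Its response differed between genotypes at 48 h, by 1.09 (adjusted p = 0.03765). Ccna1, the germ-line A cyclin, was higher at each time in WT, by 0.46 to 0.60. Ccni was lower at each time by probe set 161527_r_at (-0.52 to -0.39) and at 12 h also by 94820_r_at (-0.67). No Ccna1 or Ccni call in treated WT liver held with a term for the array set (0.19 to 0.33 and -0.40 to -0.28). Untreated Aag null also differed from untreated WT liver in Ccna1 (0.37, adjusted p = 0.02657) and Ccni 161527_r_at (-0.34, adjusted p = 0.01348). Neither was called there with that term (0.24 and -0.28, adjusted p = 0.248 and 0.1044).

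Of the 16 probe sets of cyclin-dependent kinases and their switches, 2, 4, 4 and 2 were higher and 1, 2, 1 and 1 lower in WT liver. Cdk4, the partner of cyclin D1, was higher by 0.49 at 12 h and 0.50 at 24 h. Cdc25c, the phosphatase that activates Cdk1, was higher by 0.67 to 1.01. Cdc25a, which removes inhibitory phosphate from the earlier kinases, was higher by probe set 97389_at (0.48 to 0.58) and lower by 97390_at (-0.64 to -0.40), so its probe sets disagreed. None of these calls held with a term for the array set. Cdc25a 97389_at was also higher in untreated Aag null than in untreated WT liver (0.41, adjusted p = 0.001987). That call held with the array set term (0.30, adjusted p = 0.03817).

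The CDK inhibitors and pocket proteins had 13 probe sets for 10 genes, of which 1 was called after MMS, Cdkn1b 100278_at at 48 h in WT liver (0.72, adjusted p = 0.02336). It was also higher in untreated Aag null than untreated WT liver (0.71, adjusted p = 0.01498). Neither was called with the array set term (0.17 and 0.44, adjusted p = 0.7791 and 0.1958). The other Cdkn1b probe set, 161010_r_at, read 1.35 to 1.81 in untreated WT liver and 1.27 to 1.28 at 48 h. Cdkn1a, the p53-induced inhibitor p21, was not called at any time by either probe set, with differences of -0.33 to -0.02 in WT and -0.07 to 0.33 in Aag null liver. Ccng1, another p53 target, differed by 0.23 to 0.43 in WT and -0.01 to 0.31 in Aag null liver, with no call.

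Spindle, kinetochore and segregation genes had 37 probe sets, of which 0, 0, 1 and 2 were higher and 4, 2, 1 and 2 lower in WT liver. Cenpc1, a centromere protein that anchors the kinetochore, was lower by -0.67 to -0.55 at the 4 times and by -0.70 in untreated Aag null against untreated WT liver. Its differences in treated WT liver were nearly as large with the array set term (-0.63 to -0.52) but not called (adjusted p from 0.08034 to 0.1709), and that between untreated genotypes was still called (-0.68, adjusted p = 0.004931). The Cenpc1 response differed between genotypes at 12 h (0.84, adjusted p = 0.02146) and 48 h (0.69, adjusted p = 0.03971). Treated Aag null and treated WT liver themselves did not differ by the test in any of the 37 probe sets at these times. With the array set term the 12 h difference in response was called (0.82, adjusted p = 0.04999) and the 48 h one was not (adjusted p = 0.06551). Bub1 162264_s_at was lower at 6 h in WT liver (-0.48, adjusted p = 0.02728). That call held with the array set term (-0.79, adjusted p = 0.04879). Birc5, the survivin subunit of the chromosomal passenger complex, was higher by 0.39 at 24 h and 0.46 at 48 h, at a dim signal of 1.23 to 2.04 in these groups and untreated liver. With the array set term these were 0.13 and 0.19 and not called (adjusted p = 0.7592 and 0.5696). Of 14 probe sets of the anaphase promoting complex and cyclin destruction, 0, 0, 1 and 0 were higher and 1 was lower at each time. That one was Ube2c, the conjugating enzyme of the complex, lower by -0.88 to -0.42, and its response differed between genotypes at 48 h by 0.95 (adjusted p = 0.01476). With the array set term the WT differences of Ube2c were -0.56 to -0.10 and not called (adjusted p from 0.1564 to 0.8735), and the difference in response was called (0.79, adjusted p = 0.04504). Ube2c was also lower in untreated Aag null than in untreated WT liver (-0.51, adjusted p = 0.01502). That difference was not called with the array set term (-0.355, adjusted p = 0.1614).

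Of 18 probe sets of cell cycle transcription factors, 0 were higher and 3, 3, 2 and 3 were lower in WT liver. Tfdp1, the dimer partner of E2F proteins, was lower by probe set 97565_r_at (-0.68 to -0.41), and E2f1 by 102963_at from 12 h on (-0.48 to -0.38). The other probe sets of both genes were not called in treated WT liver. Tfdp1 101959_r_at had a mean of 3.56 in untreated WT liver and 3.48 to 3.88 after MMS, Tfdp1 101958_f_at 2.43 and 2.35 to 2.65, and E2f1 161427_f_at 4.51 and 4.29 to 4.52. With a term for the array set, the Tfdp1 call at 48 h (-0.84) and the E2f1 calls at 24 h (-0.69) and 48 h (-0.69) held. E2f1 102963_at was also lower in untreated Aag null than in untreated WT liver (-0.47, adjusted p = 0.006969). That comparison shares the WT untreated arrays. Its call held with the array set term (-0.58, adjusted p = 0.007472), which is no second check there. Of 43 probe sets of DNA synthesis genes, 3, 2, 1 and 2 were higher and 3, 6, 4 and 4 lower. Rpa2, part of the complex that coats unpaired DNA strands, was lower by -1.81, -2.15, -2.25 and -2.30 in WT liver (adjusted p from 1.227e-06 to 7.153e-05). Rpa2 was also lower in Aag null liver by -1.10, -1.19 and -1.02 at 6, 12 and 24 h (adjusted p = 0.02403, 0.03604 and 0.01563). It was lower in untreated Aag null than in untreated WT liver (-1.10, adjusted p = 0.001755), and its response differed between genotypes at 48 h (1.52, adjusted p = 0.01435). Both were called with a term for the array set (-0.76 and 1.18, adjusted p = 0.04121 and 0.04146). With that term the WT calls at 12, 24 and 48 h held (-1.62 to -1.47), and the WT call at 6 h and those in Aag null liver did not. Mcm6 100149_at was higher at 48 h in WT liver (0.59, adjusted p = 0.006696), and that call held with the array set term (0.79, adjusted p = 0.0408). Tk1, the thymidine kinase of DNA synthesis, was higher by 0.69 at 24 h in Aag null liver (adjusted p = 0.0473), a call that the array set term ended.

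Cell types that could carry cycling cells into liver were read from their markers. In treated WT liver 16.8%, 21.7%, 15.1% and 17.6% of all probe sets were called at 6, 12, 24 and 48 h. The summed signal of 7 erythroid precursor probe sets was 9.67 to 10.65 in untreated and 9.20 to 9.54 in treated WT liver. Of these 7, 2 or 3 were called lower at each time, 2 higher at 12 h and 1 higher at 24 h. The Aag null sums were 9.10 to 9.72 untreated and 9.20 to 9.83 treated. The summed signal of 13 Kupffer cell and macrophage probe sets was 8.81 to 9.24 in untreated and 8.49 to 9.01 in treated WT liver. Of these 13, 3, 2, 1 and 1 were called higher and 1, 3, 0 and 0 lower in WT liver at the 4 times. The Aag null sums were 9.05 to 9.54 untreated and 8.76 to 9.57 treated. For 26 T and B lymphocyte probe sets the sum was 8.65 to 8.87 in untreated and 8.43 to 8.79 in treated WT liver. Of these 26, 1, 3, 1 and 1 were called higher and 3, 3, 3 and 5 lower in WT liver at the 4 times. Their Aag null sums were 8.57 to 8.69 untreated and 8.40 to 8.99 treated. The part of these cells in the values of Plk1, Mki67 and Pttg1 was not tested.

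The probe sets most like the called members over the 21 treated arrays, by Pearson r, were Lhx6 (0.868), Atp7a (0.862) and Zfp651 (0.859) for Plk1 161292_f_at. For Mki67 161931_r_at they were B3gnt2 (0.830), Ptafr (0.818) and Ryk (0.800), and for Pttg1 101027_s_at they were Tmem38b (0.629), Eif4h (0.627) and Atp5pb (0.607). Members were left out of this ranking, as were probe sets not above the array median on at least 2 arrays.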

How the data were processed

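Liver RNA was hybridized to Affymetrix MG-U74Av2 arrays. The authors deposited log2 signals; the scale was read from the values, and no source used here names the summary method. After removal of 66 controls, 12422 probe sets underwent quantile normalization. In R 4.3.3, limma 3.58.1 fitted 10 group means to the 28 arrays together, leaving 18 degrees of freedom, followed by eBayes with a mean trend and Benjamini-Hochberg adjustment over all 12422 probe sets. A probe set was called at an adjusted p under 0.05, with no brightness filter. There were 21 planned comparisons and 1 added after the values were seen. Genes come from the platform annotation, where 10855 probe sets have 1 symbol, 396 several and 1237 none. The 14 members, all probe sets of the listed genes, were named whatever their value, as were Cdkn1a and Ccng1. Other list genes were picked from the called probe sets with the 4 smallest adjusted p per comparison, and not every such probe set is named. Members and lists were chosen with earlier results of these data known. Promoters and motifs are from RefSeq. The fit was tested on simulated data, and the number of arrays limits its precision. Figures were drawn with matplotlib.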

Additional observations from a re-analysis of the deposited data

Results flagged for a closer look

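Ccne1, the cyclin of entry into DNA synthesis, had 1 array apart from the others of its group. In Aag null liver at 24 h, replicate 1 read 6.09 and the other 3 arrays 6.20 to 6.22, so that the gap to the nearest array was 0.8629 of the whole range, above Dixon's critical value of 0.829 for 4 arrays. That array is 1 of the 3 with a female-typical Cyp2b9 level. So is replicate 2 of the same group, which read 6.22 and was not apart. In all, 28 sets of 4 arrays were examined (14 probe sets in each of the 2 groups of 4), of which chance alone picks about 1 in 20.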

How the results depend on the processing

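The 7 named calls of Plk1, Mki67 and Pttg1 kept their direction under every alternative run. Counts of called probe sets among the 14 moved as follows. After MMS in WT liver (1, 2, 2 and 0 at 6, 12, 24 and 48 h), a term for the array set gave 0 at every time. Values as deposited gave 1 at 24 h and 2 at 48 h (Pttg1 0.70 and Plk1 0.62). Median centring gave 1, 1 and 2 at 12, 24 and 48 h, the brightness filter 1 at 12 and 24 h, array weights 0, 1 and 1 at 6, 12 and 24 h, only the groups compared 0, 1 and 1, and the replicate block 1 at 24 h. The brightness filter, above the array median on at least 2 arrays, kept 10 of the 14. Mki67 161931_r_at was not among them, so its calls were not tested there. Leaving out 1 array gave 1 to 3 at 6 h, 1 to 2 at 12 h, 0 to 2 at 24 h and 0 to 1 at 48 h. In Aag null liver array weights gave 1 at 6 h (Mki67 99457_at, -0.43), 3 at 48 h (Ccnb2, Pttg1 and Mki67, 0.47 to 0.75), 1 at 24 against 6 h and 1 at 48 against 6 h. Leaving out 1 array gave 0 to 1 at 24 h and 0 to 3 at 48 h, the highest in both without Aag untreated replicate 1. Between untreated genotypes the count of 1 became 0 on values as deposited, with the brightness filter, the replicate block, array weights, only the groups compared and without the female-typical arrays, and was 0 to 1 leaving out 1 array. Over the mean of the 4 treated times the 1 became 0 on values as deposited, with median centring, the replicate block, array weights and without the female-typical arrays, and was 0 to 1 leaving out 1 array. Only the groups compared gave 1 for Aag null against WT at 12 h. Without WT 6 h replicate 1, whose hybridization control mean was 6.42, the counts were 1 for Aag null against WT at 6 h, for WT 48 against 6 h and for the interaction at 6 h, each 0 to 1 over all arrays left out. The shares of all probe sets called under these alternatives are not given here, and the cause of these moves was not tested.

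Replicate numbers did not pair the samples: over 106 pairs of arrays with the same number in different groups the deviations from group means had a median r of -0.04 (-0.73 to 0.91), and 13 of 28 arrays correlated best with one of their own number. With the replicate block Plk1 kept its 3 calls, and Mki67 at 24 h (0.56, adjusted p = 0.05653) and Pttg1 between untreated genotypes (-0.56, adjusted p = 0.08256) lost theirs. Groups of 2 to 4 arrays and the dim signals of Mki67 and Top2a limit what differences could be seen.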
